A study of Drosophila melanogaster with 8 samples.

Results

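The question was whether vestigial (vg) and simjang (simj), expressed together in eye-antennal discs of Drosophila melanogaster, changed RNA levels by more or less than their separate effects combined. Array controls were left out, and the remaining features were kept where 2 or more of the 8 arrays gave a signal above their own median. This left 10205 of 18952 probe sets, the groups of short probes that each measure 1 transcript or a few. For each probe set the interaction was computed as the effect of vg with simj minus the effect of vg without simj, which equals the effect of simj with vg minus its effect without vg. The 876 probe sets above the median on 1 array, just outside the limit, had a median signal of 24.1, and the 446 above it on 2 arrays, just inside, had 31.2.

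Total RNA from 100 pairs of discs per sample, dissected from wandering late larvae raised at room temperature, was labelled from 100 ng and hybridised to Affymetrix arrays. The 4 groups had 2 arrays each and all carried ey-GAL4, an eyeless driver that is active in the eye primordium. Beside the driver, control discs (lacZ) had 2 copies of UAS-lacZ. In the vg group 1 of these copies was replaced by UAS-vg, in the simj group 1 was replaced by UAS-simj, and vg_simj discs had UAS-vg together with UAS-simj and no UAS-lacZ. UAS responders thus numbered 2 in every group, whereas UAS-lacZ fell from 2 copies in lacZ to 1 in vg and simj and 0 in vg_simj, which cannot be told apart from the combination of transgenes. Each value comes from many pooled whole discs, including antennal cells outside the driver's reach, and in such bulk RNA fewer cells of a type and less RNA per cell cannot be told apart.

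As background, Vestigial is a transcriptional cofactor that acts with the DNA-binding protein Scalloped to specify wing identity, and its misexpression in other discs can turn their cells toward wing fate. Simjang is the p66 subunit of NuRD, a complex that couples nucleosome remodelling with histone deacetylation and is best known for repression. When such regulators are combined, the expected level depends on how effects combine. An interaction of 0 on the log2 scale means that the 2 effects multiply, and an interaction of 0 on the linear scale means that they add, so both were tested.

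The arrays correlated at 0.955 to 0.971 within groups and at 0.912 to 0.963 between groups, over probe sets that are not independent. Of the 9 eye-antennal disc markers, 8 were measured. Their summed signal was 16246 and 16407 in lacZ, 15038 and 16433 in vg, 10395 and 9869 in simj, and 12145 and 15636 in vg_simj. It was thus lowest on both simj arrays. Markers of other tissues also differed between groups and between replicates. The 7 measured salivary gland markers summed to 5761 and 661 in vg and to 14087 and 1694 in vg_simj, against 246 to 2843 on the other 4 arrays. By this sum vg replicate 1 and vg_simj replicate 1 stood apart from their partners, and they are called the arrays with high salivary gland markers below. On these arrays ng1, ng2 and ng3 were the highest of the markers. In vg, Sgs3, Sgs7 and Sgs8 went the other way, with Sgs7 at 128 in replicate 1 and 252 in replicate 2. These Sgs genes were highest in simj replicate 1, with Sgs7 at 986 against 28.5 in simj replicate 2. The 7 ring gland markers, genes of the endocrine gland that makes ecdysone and lies close to the discs, summed to 21419 and 27013 in lacZ, 6034 and 6433 in vg, 27411 and 35118 in simj, and 3601 and 2311 in vg_simj. The 7 haemocyte markers summed to 8556 and 7471 in lacZ, 1632 and 853 in vg, 9163 and 21655 in simj, and 3957 and 2189 in vg_simj. The fat body list, with 3 of 6 markers measured, summed to between 251 and 795. Muscle markers, 3 of 5 measured, summed to 20686 and 8873 in lacZ and 10995 and 3249 in vg. In simj they summed to 18728 and 22755, and in vg_simj to 10230 and 6977.

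The transgenes themselves were read first. The vg signal was 29.4 and 28.0 in lacZ, 234 and 259 in vg, 16.6 and 22.2 in simj, and 401 and 432 in vg_simj. The vg_simj arrays thus carried more vg signal than the vg arrays, and the groups did not overlap. The log2 interaction of vg was 1.27 ± 0.38 (SE) and was not called (limma, adjusted p = 0.995), and a second vg probe set gave 1.22 ± 0.68. Both probe sets passed the signal filter through the UAS-vg arrays alone, so these log2 sizes rest on dim lacZ and simj signals. The simj signal was 479 and 727 in lacZ, 595 and 679 in vg, 1260 and 1063 in simj, and 1077 and 912 in vg_simj. All 4 arrays with UAS-simj lay above all 4 without it, and the interaction of -0.33 ± 0.30 was not called (limma, adjusted p = 0.995). Signals of ey, the gene whose enhancer drives the transgenes, were 630 and 466, 541 and 579, 334 and 354, and 551 and 682 in lacZ, vg, simj and vg_simj. The simj arrays were the lowest, and the interaction of 0.78 ± 0.26 was not called (limma, adjusted p = 0.995).

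Few interactions passed the test. On the log2 scale 5 of 10205 probe sets were called (limma, adjusted p under 0.05; 0.049%), 1 with a positive interaction (0.0098%) and 4 with a negative one (0.0392%). On the linear scale 6 were called (0.0588%), 4 positive (0.0392%) and 2 negative (0.0196%). Probe set 1629740_at was the 1 that passed on both scales (0.0098%). Without vg replicate 1 and vg_simj replicate 1, the arrays with high salivary gland markers, limma called 0 on either scale, with 480 probe sets on the log2 scale and 463 on the linear scale at an unadjusted p under 0.05. That fit has 1 array in each of 2 groups, whose spread it takes from the others, and the interactions themselves hardly moved, for example to -3.95 for miple1, 1595 for Vajk3 and -768 for Cyp4g1. Over all 8 arrays, 404 probe sets had an unadjusted p under 0.05 on the log2 scale (3.96%), 209 positive (2.05%) and 195 negative (1.91%), and 441 on the linear scale (4.32%). Neither share exceeded the unadjusted threshold of 0.05 itself. The 95% interval of the log2 interaction reached a median of 0.67 to either side of the estimate, a factor of 1.59, and the smallest interaction called was 2.24.

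Most changes made by a transgene had the same direction whether or not the other transgene was present. The test called 79 probe sets in vg against lacZ (0.774%), and all 79 had the same sign in vg_simj against simj, a comparison that shares no array with the first. Of these, 46 were called there too. Their median log2 size was 2.02 without simj, and the median of the same changes with simj was 1.58. Conversely, of 133 called in vg_simj against simj (1.3%), 126 had the same sign without simj, with a median size of 1.87 against 1.13. A comparison is expected to look larger where it chose the probe sets, which is why both directions are given.

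For simj the picture was alike. Of 42 probe sets called in simj against lacZ (0.412%), 39 had the same sign in vg_simj against vg, 17 of them called, with a median size of 1.60 against 1.25. Of 94 called in vg_simj against vg (0.921%), 90 had the same sign without vg, with a median size of 1.83 against 1.02. With each array left out in turn, the share with the same sign ran from 93.8% to 100% for vg and from 80.0% to 100% for simj. Across all 10205 probe sets the log2 effects of vg in the 2 backgrounds correlated at 0.58 and those of simj at 0.49, given as a description of these arrays. The genes skl, a cell death activator, and Cyp4p2, a cytochrome P450, were chosen after their values were seen to show an effect with similar estimates in both backgrounds. Cyp4p2 read 18.9 and 11.7 in lacZ, 1738 and 1771 in vg, 21.0 and 10.8 in simj, and 1877 and 1825 in vg_simj. Every array with UAS-vg was high, and every array without it was low and below its array median. Cyp4p2 thus passed the signal filter through its UAS-vg arrays alone, so no size is given for its log2 interaction. For skl the interaction was -0.08 with a 95% interval of -1.06 to 0.90.

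**Figure D1:**
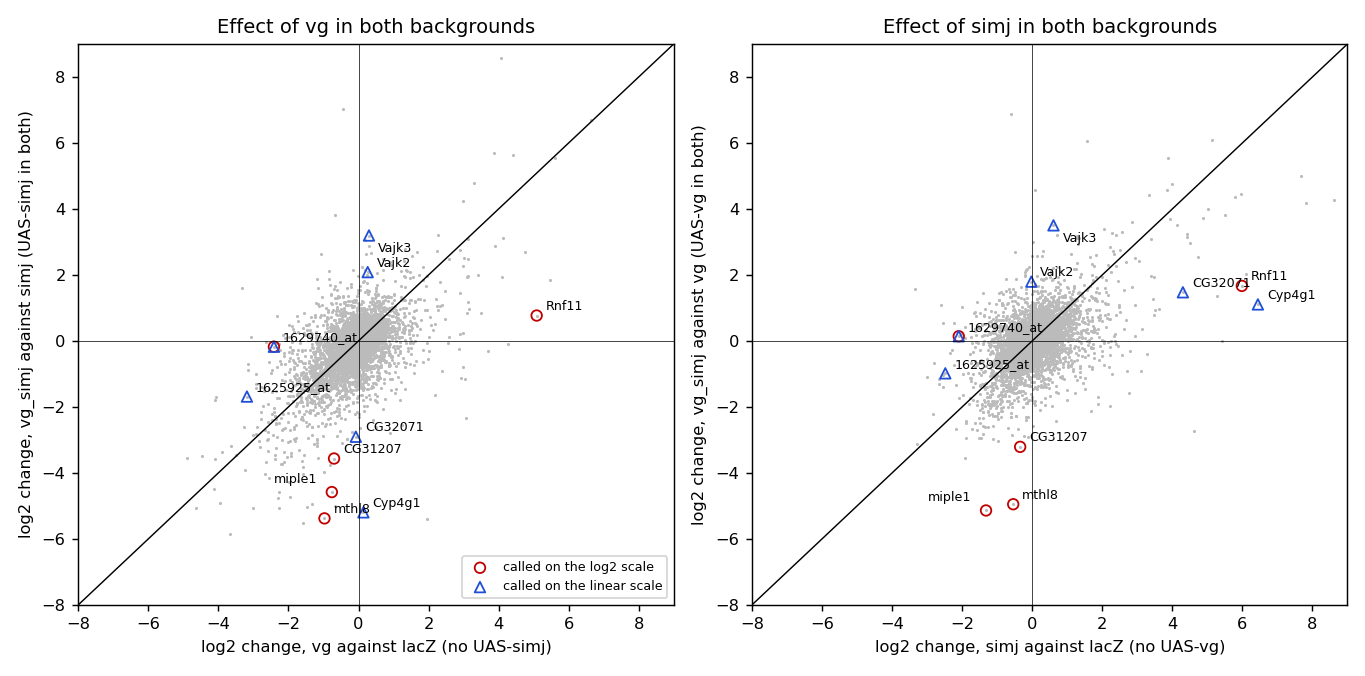
Each of 10205 probe sets is a point, with the log2 change of vg against lacZ (x) and of vg_simj against simj (y) on the left, and of simj against lacZ (x) and vg_simj against vg (y) on the right. Points on the diagonal have the same effect in both backgrounds; red circles mark the 5 probe sets called on the log2 scale and blue triangles the 6 called on the linear scale.

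Each interaction can be given a shape. The direction used for it was that of the log2 interaction. Synergy means that the vg_simj mean lay beyond the 3 other group means in that direction, and antagonism that it lay within their range. Less than multiplying means that it lay beyond them against that direction. Of the 10 probe sets called on either scale, 5 were synergistic, 3 antagonistic and 2 less than multiplying. Among the 404 with an unadjusted p under 0.05 on the log2 scale, 255 were synergistic (63.1%), 130 antagonistic (32.2%) and 19 less than multiplying. Over all probe sets the shares were 44.2% and 48.1%, and for 597 (5.85%) the interaction had opposite signs on the 2 scales. Both vg_simj arrays lay above the other 6 in 720 probe sets (7.06%) and below them in 586 (5.74%). The corresponding counts were 695 and 832 for simj (6.81% and 8.15%), 455 and 486 for vg (4.46% and 4.76%), and 429 and 348 for lacZ (4.2% and 3.41%).

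The 3 synergistic calls on the log2 scale were losses of signal. The genes miple1, CG31207 and, by its brighter probe set, mthl8 had lower signals than lacZ on every array with 1 of the transgenes, of which the change of miple1 with simj alone was called (limma, adjusted p = 0.0317), and signals of 27.2 or less with both. The gene miple1 encodes a secreted growth factor of the midkine and pleiotrophin family. Its signal was 958 and 1005 in lacZ, 547 and 609 in vg, 422 and 363 in simj, and 14.2 and 13.1 in vg_simj. The 4 groups did not overlap, and the vg_simj arrays were far below the rest. The log2 change of vg was -0.76 ± 0.17 without simj and was not called (adjusted p = 0.132), whereas with simj miple1 fell by 4.58 (limma, adjusted p = 6.08e-05). The log2 interaction was -3.82 ± 0.24 (95% interval -4.39 to -3.25, adjusted p = 0.00356), with the smallest p of all 10205 probe sets. Multiplying effects would have left a signal of 230 in vg_simj. Adding them would have left -10.9, which is no possible level, and the observed mean of 13.7 differed from it by a linear interaction of 24.6 ± 74.5 that was not called (limma, adjusted p = 0.995). The loss of miple1 was thus beyond multiplying effects and not distinguishable from adding ones.

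The gene mthl8 encodes a receptor of the methuselah-like family of G protein-coupled receptors. Its brighter probe set read 414 and 438 in lacZ, 235 and 198 in vg, 317 and 267 in simj, and 5.1 and 3.5 in vg_simj. Both vg_simj arrays were close to the bottom of the array's range while every other array stood at 198 or more. The log2 changes of mthl8 with vg alone and with simj alone were -0.97 and -0.54 (limma, adjusted p = 0.183 and 0.630). The log2 interaction was -4.41 ± 0.35 (95% interval -5.22 to -3.60; limma, adjusted p = 0.00931). Multiplying effects would have left 147 and adding ones 82.7, against an observed mean of 4.3. The linear interaction of -78.3 ± 44.1 was not called (limma, adjusted p = 0.995). A second mthl8 probe set read 285 and 376, 173 and 123, 153 and 144, and 27.9 and 17.8 in the same order of groups. It was also lowest in vg_simj, with a smaller log2 interaction of -1.44 ± 0.43 that was not called (limma, adjusted p = 0.995), so the size of the departure for mthl8 differed between probe sets. Of the 10 mthl family genes measured, mthl8 alone was called or had an unadjusted p under 0.05, and the family's median interaction was 0.09.

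CG31207 read 454 and 435 in lacZ, 270 and 274 in vg, 333 and 366 in simj, and 27.2 and 26.6 in vg_simj. Replicates lay close together and the groups did not overlap. The log2 changes of CG31207 with vg alone and with simj alone were -0.70 and -0.35 (limma, adjusted p = 0.182 and 0.688). The log2 interaction was -2.87 ± 0.25 (95% interval -3.45 to -2.28; limma, adjusted p = 0.0127). Its observed mean of 26.9 lay below both the 178 of adding and the 214 of multiplying effects, and the linear interaction of -151 ± 42.0 was not called (limma, adjusted p = 0.995). With 1 array left out, 1 group had a lone array whose spread was taken from the other groups, and fewer residual degrees of freedom remained. The call of miple1 was lost without simj replicate 1 (adjusted p = 0.0561) and held with each of the other 7 arrays left out. That of mthl8 was lost without lacZ replicate 2 (adjusted p = 0.0865), simj replicate 1 (adjusted p = 0.101) or simj replicate 2 (adjusted p = 0.105). That of CG31207 held without lacZ replicate 1 and was lost without any of the other 7 arrays, with adjusted p up to 0.142. With any 1 array left out the interactions stayed between -3.93 and -3.71 for miple1, -4.57 and -4.24 for mthl8, and -2.93 and -2.80 for CG31207. With a pseudocount of 64 the interactions were -1.57 for mthl8 and -1.59 for CG31207, no longer called (limma, adjusted p = 0.0965 and 0.0622), and -1.85 for miple1, still called (adjusted p = 0.0326). The call of miple1 was also lost with the filter at the 75th percentile (limma, adjusted p = 0.113). That filter removed mthl8 and CG31207, so neither could be called under it.

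**Figure D2:**
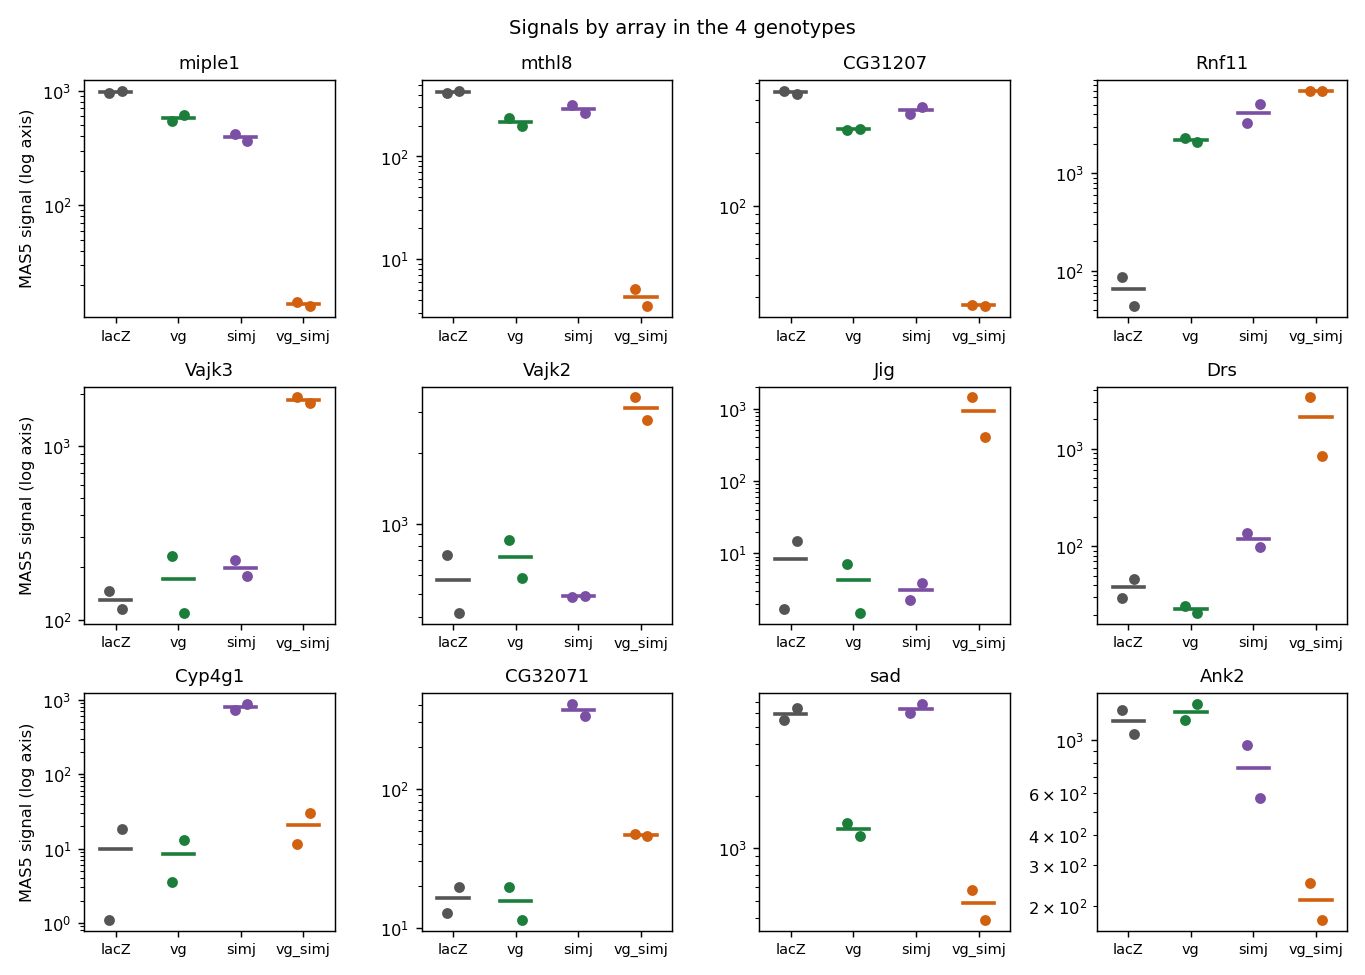
MAS5 signal (log axis) of 12 genes on each array of the lacZ, vg, simj and vg_simj groups; each point is 1 array and each line the mean of 2 arrays. The signals of miple1, mthl8 and CG31207 are lowest on both vg_simj arrays, those of Vajk2, Vajk3, Jig and Drs are highest there, and those of Cyp4g1 and CG32071 are high on the simj arrays.

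The opposite case, 2 large rises that did not multiply, was Rnf11, which encodes a small RING finger protein. Its probe set read 87.1 and 43.5 in lacZ, 2318 and 2067 in vg, 3298 and 5054 in simj, and 6899 and 7013 in vg_simj. The groups did not overlap, and the highest signals were those of vg_simj. The signal rose by 5.09 ± 0.31 on the log2 scale with vg alone (limma, adjusted p = 0.000805) and by 5.98 with simj alone (adjusted p = 0.000694). Multiplied, these would have given a signal of 138777, and added, 6303. The multiplied level is far above the highest signal of the very abundant lncRNA:CR33938, 40696. Whether the arrays can report such a level was not tested. The observed mean was 6956, so that the log2 interaction was -4.32 ± 0.44 (adjusted p = 0.0222) and the linear one 653 ± 819 (limma, adjusted p = 0.995). As read by this probe set, the rises were less than multiplying, with that limit on the multiplied level, and not distinguishable from adding. The log2 call held without lacZ replicate 1 or 2 and was lost without any of the other 6 arrays, with adjusted p up to 0.273 and values from -4.80 to -3.84. It was also lost without the intensity trend in eBayes (adjusted p = 0.154).

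A second Rnf11 probe set gave another picture. It read 88.4 and 51.6 in lacZ, 545 and 581 in vg, 91.5 and 130 in simj, and 559 and 734 in vg_simj. It was high where vg was expressed and close to control with simj alone, and its interaction was -0.48 ± 0.42 (limma, adjusted p = 0.995). The effect of simj on Rnf11, and with it the interaction, therefore differed between probe sets, whose target transcripts were not compared here.

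The same shape, a rise with each transgene and less than their product with both, was seen in 3 other genes whose interactions were not called. The mitochondrial ribosomal protein gene mRpL45 read 236 and 236 in lacZ, 764 and 746 in vg, 757 and 652 in simj, and 1114 and 841 in vg_simj. All 6 transgene arrays were high, and the interaction was -1.20 ± 0.24 (limma, adjusted p = 0.646). Ykt6, which encodes a SNARE protein of membrane fusion, had signals of 423 and 345, 1015 and 1062, 961 and 736, and 1031 and 1092. Its level with both transgenes was close to that with vg alone, and the interaction was -1.10 ± 0.24 (limma, adjusted p = 0.764). Ilp8, the insulin-like peptide that damaged discs release to delay metamorphosis, had signals of 4.2 and 29.6, 218 and 300, 165 and 157, and 851 and 449. Its vg_simj arrays were the highest, its log2 interaction was -2.18 ± 0.91 and its linear one 247 ± 106, neither called (limma, adjusted p = 0.995 for both), and the signs on the 2 scales were opposite. Ilp8 was below the array median on both lacZ arrays, which also differed from each other. The product expected for it, and its log2 interaction, thus rest on a dim baseline. In contrast, lncRNA:CR32027 had signals of 74.4 and 63.5, 272 and 275, 227 and 160, and 717 and 785. Its observed mean of 751 was near the product of 745 and above the sum of 398, with a log2 interaction of 0.01 ± 0.30.

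**Figure D3:**
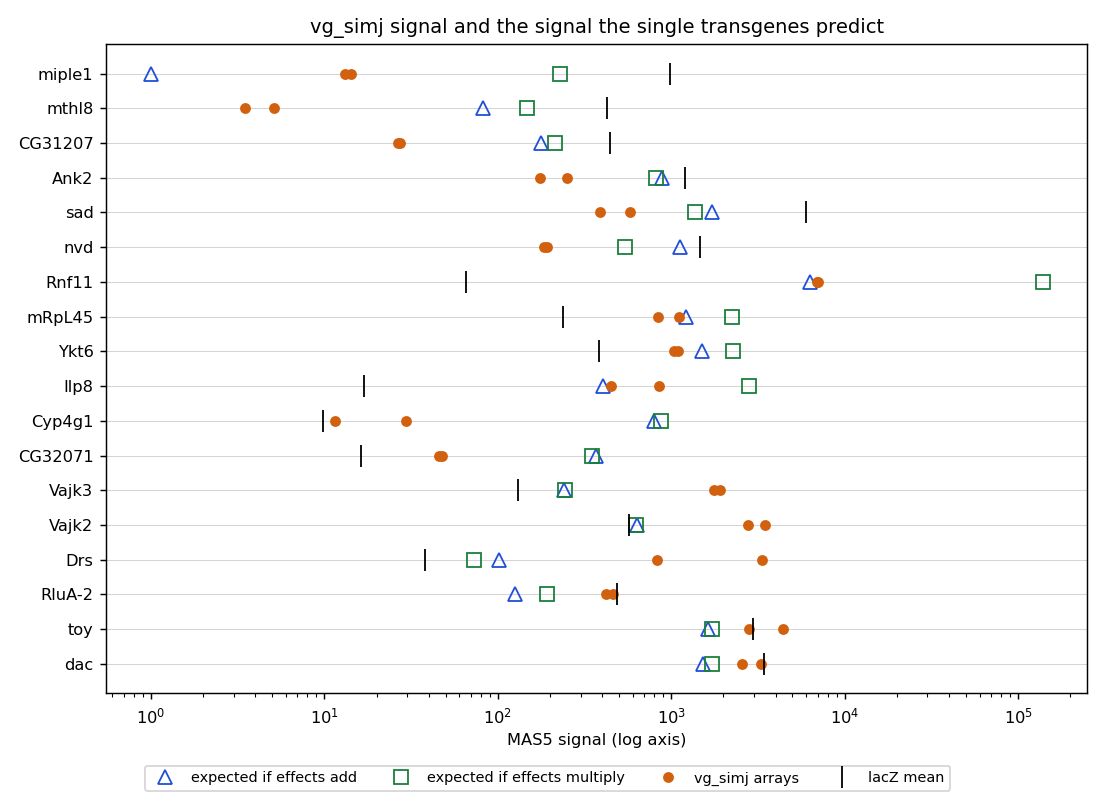
For 18 genes, the signal on both vg_simj arrays (dots, log axis) beside the level expected if the effects add (triangles, with values of 1 or less drawn at 1) or multiply (squares) and the lacZ mean (bars). The miple1 dots, at 14.2 and 13.1, lie below the multiplying level of 230, and the Rnf11 dots lie near the adding level of 6303 and far below the multiplying level of 138777.

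Synergistic gains were led by Vajk2 and Vajk3, which are neighbours on chromosome 2L with no annotated gene between them. Neither transgene alone gave a called change in either gene. The Vajk3 signal was 146 and 115 in lacZ, 233 and 109 in vg, 219 and 179 in simj, and 1907 and 1773 in vg_simj. The first 3 groups overlapped and both vg_simj arrays were far above them. Vajk3 rose by 3.19 on the log2 scale with vg where simj was present (limma, adjusted p = 0.00576) and had a change of 0.30 ± 0.33 where it was not (adjusted p = 0.838). The linear interaction was 1599 ± 179 signal units (adjusted p = 0.0388), with an observed mean of 1840 against 240 for adding effects. The log2 interaction of 2.90 ± 0.47 was of the same sign and not called (limma, adjusted p = 0.407).

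One probe set of Vajk2 read 136 and 136 in lacZ, 169 and 158 in vg, 139 and 128 in simj, and 597 and 554 in vg_simj. The vg_simj arrays again stood alone, and the linear interaction of 414 ± 41.6 was called (limma, adjusted p = 0.0253). Its log2 interaction was 1.82 ± 0.25 (limma, adjusted p = 0.146). The brighter Vajk2 probe set read 731 and 414, 855 and 583, 485 and 492, and 3480 and 2784. It was highest in vg_simj as well, and its log2 interaction of 2.31 ± 0.40 and linear one of 2497 ± 405 were not called (limma, adjusted p = 0.517 and 0.375). The linear call of Vajk3 held without vg replicate 1 or 2 and that of Vajk2 without lacZ replicate 1, and each was lost without any other array, with adjusted p up to 0.709 and 0.252. The values ran from 1532 to 1666 for Vajk3 and from 392 to 435 for Vajk2. Without a filter on dim probe sets both calls were lost (adjusted p = 0.694 and 0.228), and with 1 probe set per gene that of Vajk3 was (adjusted p = 0.116).

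Larger gains with more spread were not called. Drs encodes drosomycin, an antifungal peptide induced by Toll signalling and also made in epithelia. Its signal was 29.5 and 46.6 in lacZ, 24.4 and 20.7 in vg, 137 and 98.3 in simj, and 3343 and 833 in vg_simj. Both vg_simj arrays were above all others, replicate 1 much more so, and the log2 interaction was 4.47 ± 0.83 (limma, adjusted p = 0.517). Jig read between 1.5 and 14.8 on the 6 arrays of the other groups and 1435 and 411 in vg_simj. It passed the signal filter through its vg_simj arrays alone, so no size is given for its log2 interaction, which was not called (limma, adjusted p = 0.517). Of the 18 innate immune genes measured, 2 had an unadjusted p under 0.05 with a positive and 1 with a negative interaction. The 2 were Drs and Jig, and Jig entered the test only through the group where it was high. The 1 with a negative interaction was Tep4, a thioester-containing protein gene. It read 2618 and 2887, 2332 and 2257, 4323 and 5302, and 2200 and 2261, high in simj alone, with an interaction of -0.84 ± 0.18 (limma, adjusted p = 0.764). The list's median was 0.02. The summed salivary gland markers were also higher in vg_simj replicate 1, at 14087, than in replicate 2, at 1694, and their part in the Drs and Jig signals was not tested.

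Other uncalled gains were smaller and tighter. CkIIalpha-i3 read 738 and 638 in lacZ, 814 and 666 in vg, 541 and 517 in simj, and 1012 and 1080 in vg_simj, an interaction of 0.88 ± 0.21 (limma, adjusted p = 0.797). TwdlE, a Tweedle-family cuticle protein gene, had signals of 556 and 714, 1293 and 1919, 317 and 209, and 1586 and 2017. It was lowest with simj alone and high wherever vg was expressed, with an interaction of 1.47 ± 0.38 (limma, adjusted p = 0.913). The very abundant lncRNA:CR33938 read between 26012 and 30379 on the 6 arrays of the other groups and 40696 and 38586 in vg_simj, an interaction of 0.58 ± 0.14 (limma, adjusted p = 0.764).

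In the 2 antagonistic calls with a negative interaction, the signal was high with simj alone and much lower when vg was also expressed. Cyp4g1, the oenocyte P450 that makes cuticular hydrocarbons, read 1.1 and 18.5 in lacZ, 3.5 and 13.2 in vg, 716 and 872 in simj, and 11.6 and 29.6 in vg_simj. It was high on both simj arrays alone and near the bottom of the range on the other 6. It passed the signal filter through its simj arrays alone and was below the array median on the other 6, so no log2 sizes are given. The linear interaction was -772 ± 58.0 (limma, adjusted p = 0.0123), and the log2 interaction was not called (adjusted p = 0.764). The linear call was lost without a filter (adjusted p = 0.453) and with the filter at the 75th percentile (adjusted p = 0.318). It was also lost without simj replicate 1 (adjusted p = 0.102), simj replicate 2 (adjusted p = 0.0793) or vg_simj replicate 1 (adjusted p = 0.0775), with values from -850 to -694 with 1 array left out. Cyp4g1 was the 1 measured marker of the 5 fixed for epidermis and oenocytes, and the part of such cells in its signal was not tested.

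CG32071 had a similar order of groups. It read 12.8 and 19.8 in lacZ, 19.5 and 11.4 in vg, 406 and 333 in simj, and 47.5 and 45.7 in vg_simj. Again the simj arrays alone were high, and the vg_simj arrays lay slightly above the remaining 4. Its linear interaction was -322 ± 33.1 (limma, adjusted p = 0.0253) and its log2 interaction -2.83 ± 0.60 (adjusted p = 0.751). The linear call held without lacZ replicate 1 and was lost without any of the other 7 arrays, with adjusted p up to 0.204 and values from -358 to -285, and it was lost without a filter (adjusted p = 0.228). On chromosome 3L CG32071 is followed without an intervening gene by CG32073, and CG32073 by CG12522. CG32073 had signals of 41.4 and 53.7, 151 and 53.9, 678 and 344, and 70.6 and 65.4. CG12522 had signals of 5.2 and 22.6, 2.5 and 1.4, 786 and 389, and 14.7 and 5.5. In all 3 neighbours both simj arrays lay above the other 6, and the log2 interactions of CG32073 (-3.68 ± 0.71; limma, adjusted p = 0.558) and CG12522 (adjusted p = 0.995), which passed the filter through its simj arrays alone, were not called.

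The simj group was also highest, without a called interaction, in genes whose signal was low with vg alone. Hand, a transcription factor gene of heart, lymph gland and garland cells, read 227 and 348 in lacZ, 74.4 and 79.1 in vg, 678 and 884 in simj, and 130 and 71.4 in vg_simj. Its linear interaction was -470 ± 94.0 (limma, adjusted p = 0.475). FASN3, a fatty acid synthase gene, read 110 and 100, 21.4 and 20.4, 259 and 320, and 29.8 and 37.5, with a linear interaction of -172 ± 31.0 (limma, adjusted p = 0.466). In both genes the simj arrays were highest and all 4 arrays with UAS-vg were low. Lectin-galC1, a galactose-binding lectin gene, was at 470 and 246, 3.1 and 28.6, 872 and 847, and 38.7 and 13.1. Its linear interaction of -491 ± 111 was not called (limma, adjusted p = 0.682), and its log2 interaction was -0.41 ± 1.10.

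In 2 called probe sets lacZ was high and the signal was low with either transgene and with both. Probe set 1629740_at, which the platform annotation used here does not list, read 2908 and 3413 in lacZ, 666 and 519 in vg, 703 and 765 in simj, and 661 and 636 in vg_simj. The 6 transgene arrays lay together, well below lacZ. Its log2 interaction was 2.24 ± 0.23 (limma, adjusted p = 0.0222) and its linear one 2482 ± 235 (adjusted p = 0.0225). Adding effects would have given -1834, which is no possible level, and multiplying ones 135, against an observed mean of 649. Its linear interaction would thus have been positive whatever the vg_simj signal. Its log2 call held without lacZ replicate 1 or vg replicate 1 and its linear call without vg replicate 1 or 2, and each was lost without any other array, with adjusted p up to 0.201 and 0.170. The log2 values ran from 2.06 to 2.42 and the linear ones from 2230 to 2734. The log2 call of 1629740_at was also lost without the intensity trend (adjusted p = 0.121) and its linear call without a filter (adjusted p = 0.262).

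Probe set 1625925_at is assigned to 20 symbols, copies of the replicated histone gene His2A. It read 1339 and 1176 in lacZ, 154 and 119 in vg, 215 and 230 in simj, and 80.3 and 55.9 in vg_simj. The vg_simj arrays were the lowest, and the linear interaction of 967 ± 84.3 was called (limma, adjusted p = 0.0185) while the log2 interaction of 1.50 ± 0.33 was not (adjusted p = 0.764). Adding effects would have given -899, which is no possible level, and multiplying ones 21.9, against an observed mean of 68.1. The linear interaction would thus have been positive whatever the vg_simj signal. The linear call held without vg replicate 1, vg replicate 2 or vg_simj replicate 2 and was lost without any of the other 5 arrays, with adjusted p up to 0.116 and values from 885 to 1049. It was also lost without a filter (adjusted p = 0.453) and with the filter at the 75th percentile (adjusted p = 0.157). Of the 3 probe sets for replicated histone genes it was the 1 with the highest mean in lacZ. A probe set for the His4 copies read between 28967 and 34095 on all 8 arrays, with an interaction of 0.15 ± 0.15. Which His2A copy or other sequence the probes read was not tested. UAS-lacZ copies were also highest in lacZ, and their part in both probe sets cannot be told apart from the absence of vg and simj.

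Without a call, other genes shared this order. CG13840 read 226 and 348 in lacZ, 76.8 and 60.9 in vg, 35.4 and 40.9 in simj, and 35.5 and 49.5 in vg_simj, with an interaction of 2.12 ± 0.49 (limma, adjusted p = 0.764). CG13064 read 453 and 563, 302 and 311, 245 and 222, and 310 and 327, with an interaction of 1.16 ± 0.24 (limma, adjusted p = 0.688). In both, lacZ was above every other array.

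A crossover is a pattern in which all 4 arrays of lacZ and vg_simj lie on the same side of all 4 arrays of vg and simj. It was found with lacZ and vg_simj above in 100 probe sets (0.98%) and below in 37 (0.363%), and none was called. Named examples were RluA-2, CG17163, RabX1, Rlb1 and Mis12. RluA-2, a pseudouridine synthase gene, read 461 and 514 in lacZ, 301 and 280 in vg, 315 and 329 in simj, and 422 and 462 in vg_simj. With both transgenes the signal was close to the control level, and the interaction was 1.19 ± 0.21 (limma, adjusted p = 0.517). RabX1, a Rab-family GTPase gene of vesicle traffic, read 586 and 612, 464 and 408, 504 and 442, and 623 and 601, with an interaction of 0.83 ± 0.20 (limma, adjusted p = 0.797). Mis12, which encodes a kinetochore protein, read 422 and 374, 366 and 226, 225 and 274, and 471 and 438, with an interaction of 1.32 ± 0.34 (limma, adjusted p = 0.884). The interactions of CG17163 and Rlb1 were 0.83 ± 0.20 and 0.90 ± 0.22.

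Gene groups were described on 1 probe set per gene, over 8034 genes of which 4 were called (0.0498%), 325 had an unadjusted p under 0.05 (4.05%; 2.08% positive and 1.97% negative), and 54.9% had a positive log2 interaction, with a median of 0.03. Of the 41 lists with at least 3 measured members, the list of mthl receptors was the only one that held a member called on the log2 scale, and Cyp4g1, called on the linear scale, was in the lists of P450 and of oenocyte and epidermis genes. What follows describes counts and medians on the log2 scale, and no group was tested. The list that stood lowest by count comprised genes of late photoreceptor and neuronal differentiation. Of its 24 measured members, 22 had a negative interaction, 11 had an unadjusted p under 0.05, all negative, and the median was -0.76. In 14 of 24 both vg_simj arrays lay below the other 6, against 5.45% of all genes. The median change of these genes with vg was 0.10 without simj and -0.92 with it, and with simj it was -0.56 without vg and -1.51 with it.

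Among its members, Ank2 encodes an ankyrin that anchors membrane proteins to the neuronal cytoskeleton. It read 1346 and 1060 in lacZ, 1213 and 1422 in vg, 956 and 573 in simj, and 251 and 176 in vg_simj. The vg and lacZ arrays overlapped and the vg_simj arrays were far below the simj arrays, with an interaction of -1.94 ± 0.39 (limma, adjusted p = 0.648). The 3 other Ank2 probe sets had interactions of -0.57, -1.38 and -0.31. The transcription factor gene onecut read 149 and 238, 195 and 218, 69.7 and 64.3, and 27.7 and 21.5, with an interaction of -1.48 ± 0.44 (limma, adjusted p = 0.995). In onecut each arm with simj was lower than the arms without it, and vg_simj was the lowest. The RNA-binding protein gene cpo read 1710 and 1692, 1593 and 1575, 1314 and 958, and 517 and 633, with an interaction of -0.87 ± 0.25, and its second probe set gave -1.34 ± 0.31 (limma, adjusted p = 0.995 and 0.764). The sodium pump subunit gene nrv3 had an interaction of -0.94 ± 0.27. Of members chosen after their values were seen, the cytoskeletal gene futsch had an interaction of -1.15, the amyloid precursor homologue Appl -1.19, the axon guidance gene gogo -0.74 and the photoreceptor cell-surface gene chp -0.86. Other members were close to 0, with elav at -0.09, caps at -0.08, fra at -0.15 and jim at -0.17. The 2 positive members were nvy at 0.07 and Lar at 0.12.

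Genes of earlier steps of eye development gave other counts. Of 19 genes of photoreceptor recruitment, 0 were called and 0 had an unadjusted p under 0.05 by limma, with a median interaction of -0.01. Their median change with simj was -0.86 without vg and -0.99 with it. The 12 glial genes measured had a median of -0.15, with 8 negative and 4 positive. The positive ones were Gli at 0.27, loco at 0.31, gcm at 0.33 and Gs2 at 0.002. The 3 with an unadjusted p under 0.05, all negative, were repo, wrapper and Nrg. Nrg is also in the late photoreceptor and neuronal list, and other Nrg probe sets gave -0.11 and 0.06. The glial transcription factor repo read 481 and 456, 603 and 575, 544 and 470, and 303 and 390, lowest in vg_simj, with an interaction of -0.88 ± 0.24 (limma, adjusted p = 0.982).

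Genes of the retinal determination network, the transcription factors that specify the eye field, lay the other way. All 11 measured had a positive log2 interaction, 3 with an unadjusted p under 0.05, and the median was 0.40. Their median change with simj was -0.65 without vg and -0.04 with it. The gene dac read 3876 and 2941 in lacZ, 3236 and 2757 in vg, 2055 and 1812 in simj, and 2573 and 3274 in vg_simj. Both simj arrays were the lowest and vg_simj overlapped vg and lacZ, with an interaction of 0.76 ± 0.26 (limma, adjusted p = 0.995). The Pax6 gene toy read 2670 and 3238, 2009 and 3177, 1872 and 2118, and 2823 and 4416, with an interaction of 1.04 ± 0.38 (limma, adjusted p = 0.995). Its vg_simj replicates differed, and without vg_simj replicate 2 the list's median was 0.10. Tom, a Bearded-family gene of Notch signalling, was also lowest with simj alone. It read 7296 and 8024, 8172 and 8339, 4984 and 4597, and 7678 and 7594, an interaction of 0.56 ± 0.15 (limma, adjusted p = 0.924). Of 16 Notch and Enhancer of split genes, 3 had an unadjusted p under 0.05, all positive, namely Tom, E(spl)m4-BFM and Brd, and the median was 0.14. Of the other Bearded-family members, BobA had an interaction of -1.15, E(spl)malpha-BFM 0.15 and E(spl)m2-BFM 0.13. That median was -0.054 without simj replicate 2.

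Among 13 genes regulated by Vestigial and Scalloped or marking their wing programme, 9 had a positive interaction, 3 had an unadjusted p under 0.05 and the median was 0.38. These 3 included the transgene vg itself beside fj and Dad, and vg passed the signal filter through its UAS-vg arrays alone. The Golgi kinase gene fj read 1698 and 1689, 1731 and 1466, 1613 and 1524, and 1980 and 2489, with an interaction of 0.59 ± 0.21. Dad, an inhibitory Smad gene of Dpp signalling, read 2017 and 1790, 2066 and 1754, 2379 and 1714, and 2837 and 3690, with an interaction of 0.68 ± 0.28. In both genes the first 3 groups overlapped and vg_simj lay above them, without a call (limma, adjusted p = 0.995). The wing-pouch gene nub, chosen after its values were seen, read 175 and 78.9, 259 and 376, 185 and 210, and 781 and 943, with an interaction of 0.72 ± 0.50 (limma, adjusted p = 0.995). In 6 of the 13, vg itself included, both vg_simj arrays lay above the other 6, against 7.57% of all genes. In the broader wing patterning list of 32 genes, which shares members with it, 19 were positive, the median was 0.09, and both vg_simj arrays lay above the other 6 in 7 and below in 2. The vg signal itself was higher in vg_simj than in vg, and its part in these levels was not tested.

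**Figure D4:**
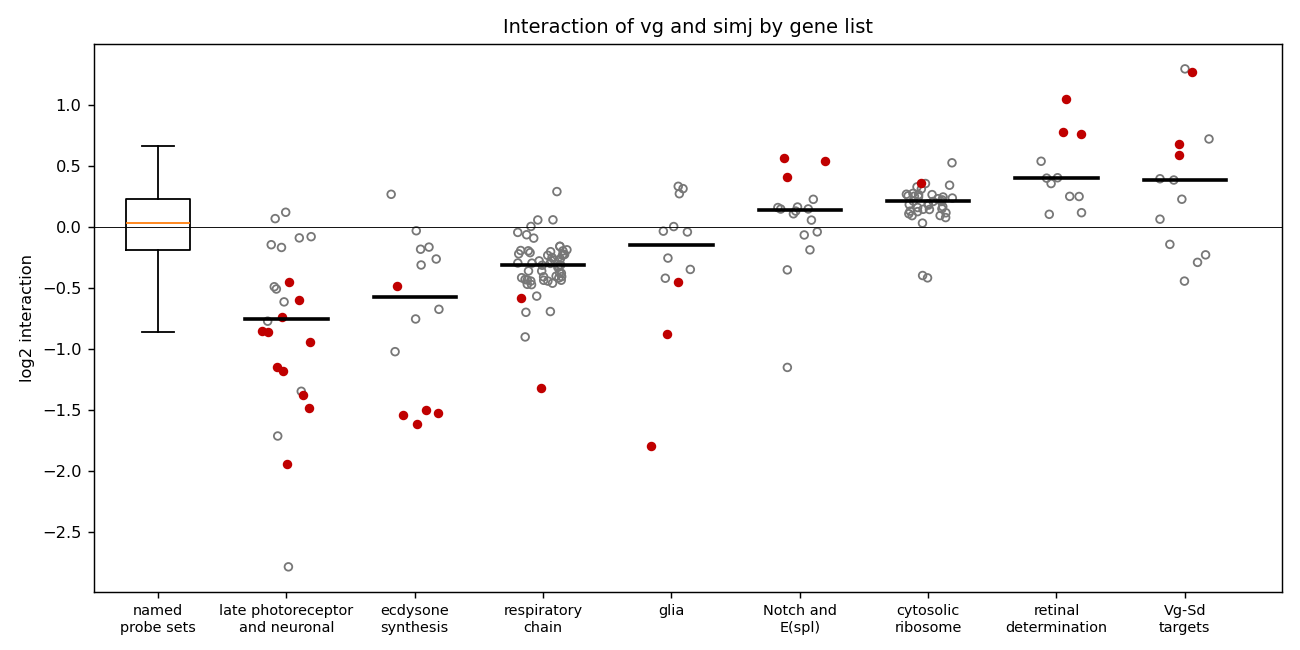
Log2 interaction of each measured member of 8 gene lists (points; red where the unadjusted limma p is under 0.05) with the list's median (black bar), beside a box of 8759 probe sets with 1 gene symbol (median 0.03, quartiles -0.19 and 0.22, whiskers at the 5th and 95th percentiles of -0.86 and 0.66). Late photoreceptor and neuronal genes lie mostly below 0 (median -0.76) and retinal determination genes all above it (median 0.40).

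Genes of ecdysone synthesis and its control, many but not all of which are expressed in the prothoracic gland, had a median interaction of -0.58. Of these, 13 of 14 were negative and 5 had an unadjusted p under 0.05, all negative. The gene sad, a P450 of the pathway, read 5504 and 6394 in lacZ, 1400 and 1173 in vg, 5984 and 6762 in simj, and 579 and 388 in vg_simj. It was close to control with simj alone, fell by 2.21 on the log2 scale with vg alone (limma, adjusted p = 0.00419) and fell by 3.74 with vg where simj was present (adjusted p = 0.000165). The interaction of -1.53 ± 0.28 was not called (limma, adjusted p = 0.517). The interactions of nvd, the cholesterol desaturase gene, spok and phtm were -1.50 ± 0.28, -1.61 ± 0.36 and -1.54 ± 0.44. These genes overlap the ring gland markers, whose summed signals were also highest in simj, at 27411 and 35118, and lowest in vg_simj, at 3601 and 2311. How much ring gland tissue came with each sample was not tested.

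Haemocyte genes had no common direction, with 11 of 25 positive and a median of -0.08. PPO2, a prophenoloxidase gene of crystal cells, read 1484 and 1659, 343 and 120, 1535 and 2035, and 808 and 535, with an interaction of 1.51 ± 0.62. The perlecan gene trol read 933 and 692, 1024 and 1239, 1120 and 1108, and 579 and 782, with an interaction of -1.21 ± 0.29 and of -1.70 to -0.62 in 4 other probe sets, none called (limma, adjusted p from 0.764 to 0.995). Haemocyte marker sums differed between replicates of simj, at 9163 and 21655, and their part was not tested. Genes of tissue damage and JNK signalling had 3 of 15 with an unadjusted p under 0.05, all negative. The TNF ligand gene egr read 926 and 939, 653 and 601, 796 and 840, and 366 and 380, with an interaction of -0.55 ± 0.18 (limma, adjusted p = 0.995). A second egr probe set gave 0.32 ± 0.79, of the opposite sign.

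Housekeeping groups differed in sign. Respiratory chain genes had a negative interaction in 53 of 57, with a median of -0.31, 2 with an unadjusted p under 0.05 and 0 called by limma. Cytosolic ribosomal protein genes had a positive one in 36 of 38, with a median of 0.21 and 1 with an unadjusted p under 0.05. Quantile normalization moved the ribosomal median to 0.04. Mitochondrial ribosomal protein genes were positive in 31 of 69, with a median of -0.02 and 2 with an unadjusted p under 0.05. The 8 measured NuRD genes, simj included, had a median of 0.02, with 4 of them positive, 0 called and 0 at an unadjusted p under 0.05 by limma. The 23 cell cycle genes had a median of 0.11, also with 0 called and 0 at an unadjusted p under 0.05.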

How the data were processed

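Each array was deposited as MAS5 signals, an intensity on a linear scale, per the labels' processing tool field. The version of MAS5 is not given in the sources used here. Trimmed by 2% at either end, the mean signal was 500 on each of the 8 arrays. Median signals were 36.5 to 46.3, and the 2 arrays per group limit the precision of every value. Groups came from the titles, which call the replicates biological. Gene symbols came from the platform annotation (13647 probe sets with 1 symbol, 402 with several, 4903 with none), and of the 10205 kept probe sets 8759 had 1 symbol and stood for 8034 genes.

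To each signal a pseudocount of 2.8, their 10th percentile, was added before taking log2, which understates changes of dim genes. With limma 3.58.1 in R 4.3.3, the 4 group means were fitted jointly to the 8 arrays, with eBayes and an intensity trend. The linear interaction was fitted on the deposited signals with vooma weights. Tests were two-sided with Benjamini-Hochberg adjustment over 10205 probe sets, called at adjusted p under 0.05. For 2 against 2 arrays the smallest exact permutation p is 0.333. The expected level for multiplying effects comes from mean log2 values and that for adding effects from mean signals. The code was tested on simulated data.

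Named genes were vg, simj and ey, the 15 leading interactions in each direction on the log2 scale and the 10 on the linear scale (called ones first, then by p), called crossovers, of which there were none, and up to 4 members with the smallest p per list. The members, lists and tests were chosen with earlier results of these data known. The gene sd was not analysed here. Same-numbered replicates deviated together with correlations of 0.059 to 0.402 and share only a number. Alternatives changed the pseudocount, filter, normalization, variance model, probe sets per gene, replicate block and arrays used, and leaving out the vg and vg_simj arrays with high salivary gland markers was chosen after seeing the data.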

Additional observations from a re-analysis of the deposited data

Results flagged for a closer look

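The effect of vg with simj differed from that without it, by the interaction test (limma, adjusted p under 0.05), in 10 probe sets. On the log2 scale the differences were -3.82 for miple1, -4.41 for mthl8, -2.87 for CG31207, -4.32 for Rnf11 and 2.24 for probe set 1629740_at. On the linear scale, in signal units, they were 1599 for Vajk3, 414 for Vajk2, -322 for CG32071, -772 for Cyp4g1 and 967 for probe set 1625925_at, which is assigned to the His2A copies. Cyp4g1 passed the signal filter through its simj arrays alone, where it was high, and its call was lost without a filter. For 1625925_at adding effects would have given -899, which is no possible level. The signal of miple1 on the vg_simj arrays was 14.2 and 13.1, that of Vajk3 1907 and 1773, and that of Cyp4g1 11.6 and 29.6. For miple1 and Rnf11 the interaction had opposite signs on the 2 scales.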

How the results depend on the processing

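The 5 calls on the log2 scale, 6 on the linear scale and 1 on both were also made under quantile normalization, median centring and the replicate block, which gave 5, 6 and 1. With the stricter filter (75th percentile) 2 were called on each scale. That filter removed mthl8, CG31207, CG32071 and the called Vajk2 probe set, which could not be called under it. Without a filter limma called 0 on the linear scale (927 at an unadjusted p under 0.05) and 0 on both, and with 1 probe set per gene 2 on the linear scale and 0 on both. With 1 array left out the counts ran from 0 to 10 on the log2 scale, 0 to 12 on the linear scale and 0 to 5 on both. The highest were without lacZ replicate 1. Without simj replicate 1 limma called 0 on each scale, with 313 and 357 at an unadjusted p under 0.05, and 0 on the linear scale without simj replicate 2 or vg_simj replicate 1 (377 and 546). Without vg replicate 1 and vg_simj replicate 1 all 3 counts were 0, with 480 and 463 unadjusted. Median centring lowered the unadjusted counts from 404 to 269 and from 441 to 265. With a pseudocount of 64 the log2 calls were 4, of which 3 were shared with the 5, those of mthl8 and CG31207 being lost. Without the intensity trend they were also 4, 3 of them shared, those of Rnf11 and 1629740_at being lost.

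No called interaction changed sign on the scale on which it was called. Signs turned for values near 0. The linear interaction of miple1 was -22.2 under median centring and -6.85 without vg replicate 1 and vg_simj replicate 1. With 1 array left out it ran from -6.30 (vg replicate 1) to 55.4, with -4.90 for simj replicate 2, and that of Rnf11 ran from -225.3 (simj replicate 1) to 1531. The log2 interaction of lncRNA:CR32027 was -0.013 with 0.1 times the pseudocount and ran from -0.24 (simj replicate 2) to 0.26 with 1 array left out, also below 0 without lacZ replicate 1 or vg_simj replicate 2. That of Lectin-galC1, with arrays left out, ran from -2.31 to 0.79, above 0 in the absence of the second replicate of lacZ, vg or vg_simj. The Notch list's median ran from -0.054 (simj replicate 2) to 0.25. The median of the late photoreceptor and neuronal list ran from -1.03 to -0.50 over all alternatives and that of the retinal determination list from 0.10 to 0.61. The causes were not tested. Signals near the bottom of the range, such as those of Cyp4g1 outside simj, cannot be told from background without detection calls.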

Other observations

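The values of 3 further named genes, none with a called interaction, follow. The stress-response transcription factor gene cnc read 5757 and 7030 in lacZ, 6370 and 5606 in vg, 8101 and 6071 in simj, and 3034 and 3396 in vg_simj. Its first 3 groups overlapped and vg_simj lay below them, with a log2 interaction of -1.04 ± 0.24 (limma, adjusted p = 0.764). The gene blanks, which encodes a double-stranded RNA-binding protein, read 160 and 216, 287 and 300, 125 and 125, and 66.9 and 74.6. It was highest with vg alone and lowest with both transgenes, with an interaction of -1.45 ± 0.32 (limma, adjusted p = 0.764). The glial surface protein gene wrapper read 49.2 and 59.3, 142 and 127, 99.6 and 160, and 66.5 and 113, higher on all 6 transgene arrays than in lacZ, with an interaction of -1.80 ± 0.50 (limma, adjusted p = 0.995).

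Salivary gland genes had wide interactions, from -4.21 to 2.42 over 14 measured genes with a median of -0.86, and 1 of them had an unadjusted p under 0.05. Cuticle genes had both signs, with 27 of 63 positive, 3 positive and 1 negative at an unadjusted p under 0.05, and a median of -0.18. LysP, a lysozyme gene, read 58.8 and 0.40 in lacZ, 108 and 23.7 in vg, 233 and 497 in simj, and 11.7 and 1.80 in vg_simj, and its interaction was not called (limma, adjusted p = 0.924).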
